A study of Mus musculus with 16 samples.

Results

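The 8 small nucleolar RNA (snoRNA) host RNAs Gas5, Snhg1, Snhg3, Snhg5, Snhg6, Snhg8, Snhg12 and Zfas1 were followed through fed and fasting mouse tissues. They were taken by gene symbol from a table of 55385 genes, in which each of the 8 has 1 row. These hosts and the gene lists set beside them were chosen with earlier results of these data known. All libraries came from male C57BL/6 mice bought at 12 weeks of age, 3 mice per group, that were fed chow freely or fasted for 24 h. Equal amounts of tissue from the 3 animals were combined before extraction, and muscle, heart, liver, kidney, spleen, lung and both white and brown adipose each gave 1 fed and 1 fasting library of short-read RNA-Seq, or 16 libraries from 8 tissues. The 16 libraries therefore carry no replicate error, and a test within a tissue compares its 2 libraries and not the 2 conditions.

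SnoRNAs guide the chemical modification and cleavage of ribosomal RNA, and in mammals most of them are cut out of the introns of longer host RNAs. The hosts described here are annotated as noncoding, and the spliced RNA of several of them is known to be short-lived, since its translation leads to nonsense-mediated decay. Their 5′ ends are known to resemble those of the ribosomal protein mRNAs, the terminal oligopyrimidine (TOP) start, in which a capped C is followed by an unbroken run of C and T. Translation of RNAs with such a start is known to follow the activity of the mTOR kinase and the binding of LARP1, and to fall when nutrients are short.

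The first 50 bases from an annotated start of each host RNA are shown because the TOP start is what joins the 8 genes. Starts that begin with C and then at least 4 bases of C or T were looked for. Of these, the one shared by the largest number of transcripts was taken, or, for want of one, the start with the longest such run. Such starts belong to a minority of the GENCODE transcripts of each gene. They make up 5 of 25 for Gas5, 3 of 10 for Snhg12, 1 of 3 for Snhg8 and 1 of 6 for Snhg5. For Snhg3, Snhg6 and Zfas1 they make up 1 of 5 each. Capitals mark the C and the run that follows it, read from GENCODE vM21 transcripts, or from RefSeq for Snhg8, on build GRCm38.
Gas5: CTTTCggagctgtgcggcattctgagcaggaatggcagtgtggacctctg
Snhg1: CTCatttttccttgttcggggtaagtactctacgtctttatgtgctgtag
Snhg3: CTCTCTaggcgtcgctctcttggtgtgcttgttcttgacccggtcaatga
Snhg5: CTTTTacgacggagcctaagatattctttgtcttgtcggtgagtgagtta
Snhg6: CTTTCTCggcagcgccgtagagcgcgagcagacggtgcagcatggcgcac
Snhg8: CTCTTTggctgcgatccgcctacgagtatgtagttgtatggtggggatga
Snhg12: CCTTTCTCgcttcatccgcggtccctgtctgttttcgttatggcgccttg
Zfas1: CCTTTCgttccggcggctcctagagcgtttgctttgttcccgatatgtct

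The windows lie at chr1:161035166-161035215 (Gas5, plus strand), chr19:8723487-8723536 (Snhg1, plus), chr4:132353584-132353633 (Snhg3, minus), chr9:88522839-88522888 (Snhg5, minus), chr1:9944069-9944118 (Snhg6, minus), chr3:123508287-123508336 (Snhg8, minus), chr4:132308676-132308725 (Snhg12, plus) and chr2:167063221-167063270 (Zfas1, plus). The capital run was 8 bases long in Snhg12, 7 in Snhg6, 6 in Snhg3, Snhg8 and Zfas1, and 5 in Gas5 and Snhg5. In Snhg1 an A follows after 3 bases, and none of its 18 GENCODE transcripts or its 1 RefSeq start begins with the pattern, so the letters of these annotations do not bear out its TOP label. Among the 77 GENCODE transcripts of the 8 genes, 13 (16.9%) begin with the pattern, which is the case for 2.02% of all 141767 transcripts and for 10.6% of the 490 transcripts of ribosomal protein genes. Counted by gene, at least 1 transcript with the pattern is annotated for 7 of the 8 hosts, for 35 of 79 ribosomal protein genes and for 4.54% of all genes. By the RefSeq starts, the pattern was found for 2 of the 7 hosts with an entry, for 14 of 58 ribosomal protein genes and for 3.01% of all genes. Genes with many annotated transcripts have more chances in such a count. These letters describe annotated starts, and where transcription began in these tissues was not measured.

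The rows of the hosts are exon unions that often take in the introns as well. Exon bases cover 100% of the span of Snhg1 (2969 bases, chr19:8723475-8726443), of Snhg12 (2402 bases, chr4:132308623-132311024) and of Snhg8 (853 bases, chr3:123507552-123508404). For Gas5 (chr1:161034422-161038539) they cover 91.3%, for Zfas1 (chr2:167062934-167065862) 64.9% and for Snhg6 (chr1:9941959-9944118) 53.1%. For Snhg3 (chr4:132348014-132353686) and Snhg5 (chr9:88495268-88523562) the shares are 17.4% and 12.8%. For Snhg1, Snhg12, Snhg8 and most of Gas5, the counts therefore take in spliced and unspliced RNA together. Inside the 8 rows and on the same strand lie 32 snoRNA rows, which the map of exon and snoRNA positions shows. Of the 29 snoRNA rows that share bases with a host exon, 28 have 0 counts in all 16 libraries together. The 3 that share none have counts, namely Snora73b in Snhg3 with 97824, Gm23201 in Zfas1 with 227 and Snord87 in Snhg6 with 110. How reads over shared bases were assigned is not given in the sources used here. A count of 0 in a row that shares bases therefore does not show that its snoRNA was absent.

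**Figure D1:**
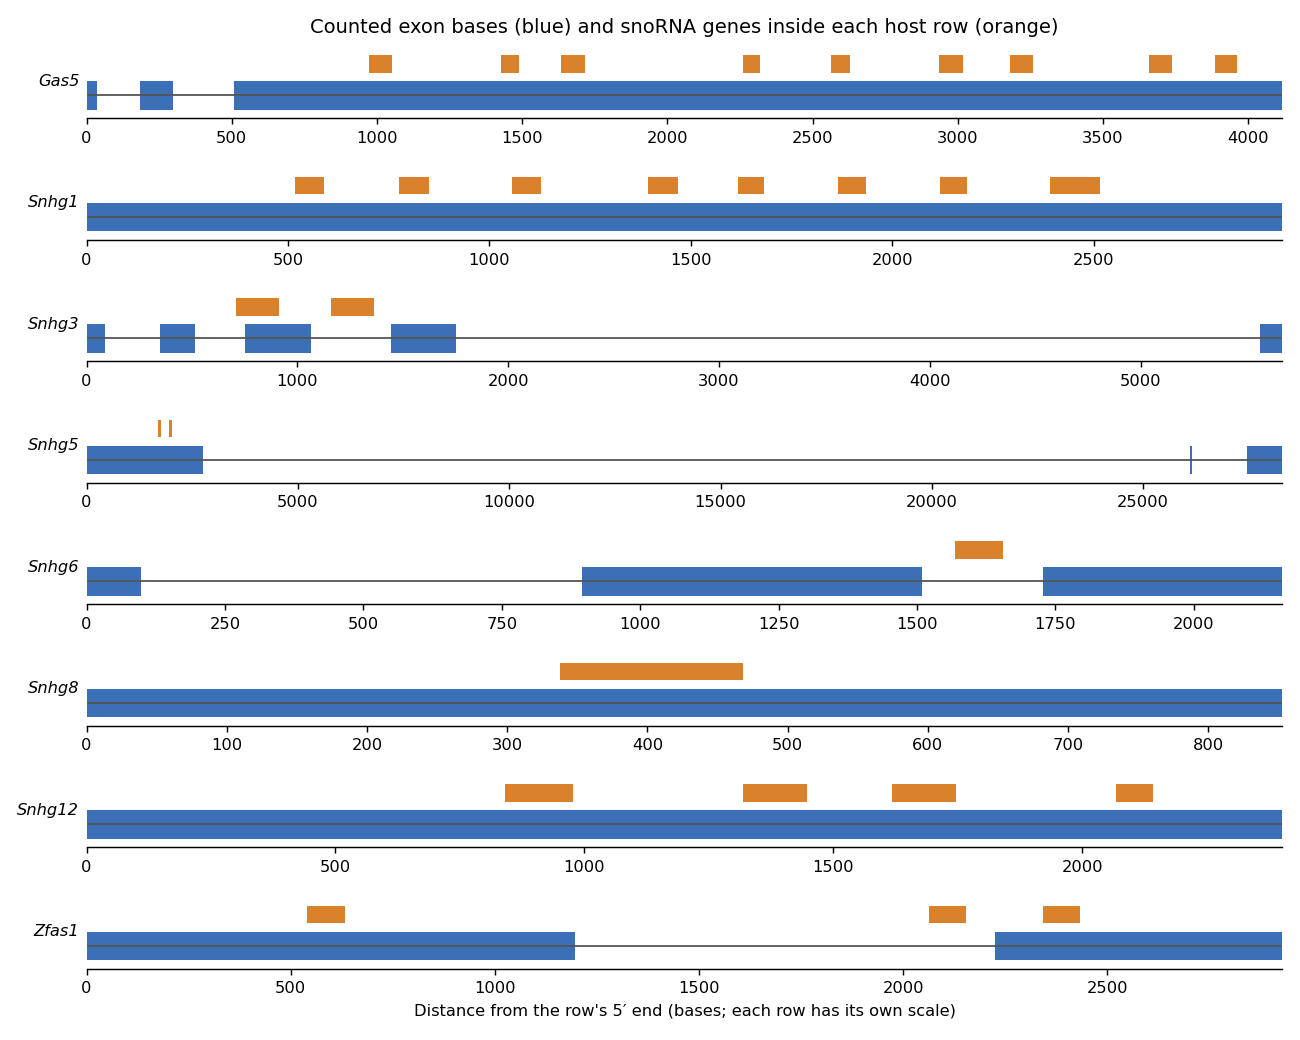
Counted exon bases (blue) and the snoRNA genes inside each host row (orange), against the distance from the row's 5′ end in bases, with a scale of its own for each gene. Snhg1, Snhg8 and Snhg12 are counted over their whole span, and only Snora73b, Snord87 and Gm23201 lie fully in uncounted stretches.

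Library totals lay between 14245178 and 36069968 counts, and every host had at least 40 counts in every library (highest 4547, Gas5 in fasting spleen). Marker genes of the labelled cell types peaked in the labelled tissue in each case, for example skeletal muscle genes at 116503 CPM (a gene's counts scaled to its library's total) or more in muscle against at most 2307 CPM elsewhere. Adipocyte genes reached 15115 CPM or more in white adipose and up to 8427 CPM in brown adipose. Marker lists of which at least 50% of the genes passed the thresholds described below in one direction are given here by tissue, with summed CPM in fed and fasting. In lung, all 4 B cell genes (157.0 and 78.0 CPM), all 5 T cell genes (61.6 and 17.4 CPM), all 4 genes of dividing cells (100.2 and 51.2 CPM), all 3 cardiomyocyte genes (706.6 and 419.2 CPM) and 2 of 4 hepatocyte genes (15.7 and 10.6 CPM) passed downward, and 3 of 4 adipocyte genes upward (218.5 and 401.0 CPM). In spleen, all 4 erythroid genes passed upward (2961 and 7057 CPM) and all 4 pancreatic acinar genes downward (259.9 and 11.4 CPM). In brown adipose, all 4 skeletal muscle genes (2001 and 942.5 CPM) and 2 of 4 genes of dividing cells (12.2 and 6.81 CPM) passed downward. In liver, 3 of 4 pancreatic acinar genes passed upward (60.6 and 102.3 CPM) and 2 of 4 genes of dividing cells downward (9.90 and 5.25 CPM). In kidney, 2 of 4 genes of dividing cells (16.1 and 9.82 CPM), 2 of 4 adipocyte genes (719.5 and 439.3 CPM) and 2 of 4 hepatocyte genes (1257 and 1668 CPM, with 1 upward) passed downward, and 2 of 3 brown adipocyte genes upward (1.51 and 7.25 CPM). In heart, all 4 hepatocyte genes (22.3 and 78.3 CPM) and 2 of 3 lung epithelium genes (39.9 and 58.2 CPM) passed upward. In muscle, 3 of 4 adipocyte genes passed downward (431.4 and 365.6 CPM), and white adipose had no such list. The part of these differences in the values of the hosts in the same tissues was not tested. In bulk tissue, fewer cells of a type and less RNA per cell cannot be told apart.

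Fasting against fed within each tissue asks where the host RNAs differed between the pools. The fasting library held more host RNA in 53 of 64 pairs of host and tissue, and 23 pairs passed both thresholds upward while 0 passed downward. The thresholds, taken from the study's methods, are a log2 fold change of CPM above 0.5 or under -0.5 together with p under 0.01, unadjusted, by Fisher's exact test (two-sided). Muscle and brown adipose had the highest median log2 fold changes of the 8 hosts, and spleen and lung had 0 calls. All intervals below are 95% exact counting intervals of the log2 fold change, and they leave out the variation between mice.

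In brown adipose, all 8 hosts passed upward, where 8.68% of the 15374 genes with at least 1 CPM in one of the 2 libraries did so and 12.2% passed downward. Their log2 fold changes ran from 0.52 (Snhg1) to 1.04 (Snhg5), with a median of 0.71 against a median of -0.029 over those genes. In muscle, 6 hosts passed upward and 0 downward, against 7.80% and 16.4% of 13701 genes, and the median over the 8 hosts was 0.88 against -0.14 over all these genes. The 2 below the thresholds in muscle were Snhg8 at 0.44 and Snhg3 at 0.26.

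White adipose had 3 hosts passing upward (Snhg1, Snhg12 and Zfas1) against 19.8% of 17494 genes, and 0 downward against 9.23%. That background was the highest of the 8 tissues, and all 8 hosts were above 0 with a median of 0.45. In heart, 3 hosts passed upward (Snhg6, Snhg12 and Zfas1) against 7.01% of 15135 genes, and 0 downward against 9.65%. Kidney had 2 (Snhg6 and Zfas1) against 4.48% of 16033 genes, and 0 downward against 6.23%. Liver had 1 (Snhg3) against 7.34% of 14085 genes, and 0 downward against 15.8%. The median over the 8 hosts in liver was 0.40, against -0.13 over those genes. Counting intervals there lay above 0 for 5 hosts, and the share of all genes with such an interval is not given here. With trimmed mean (TMM) factors in place of library totals, which move the log2 fold change of all genes by 0.12 in liver and by -0.11 in white adipose, liver had 5 passing hosts (10.2% of all genes), kidney 4 (5.78%), muscle 7 (9.85%), heart 4 (8.30%) and lung 1 (5.49%). The counts in brown adipose (9.56% of genes), white adipose (16.8%) and spleen (3.86%) were then as on library totals.

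Spleen and lung had the lowest medians of the 8 tissues, and their counts of 0 are near the background. In spleen, 0 hosts passed in either direction, against 3.62% of 17358 genes upward and 2.33% downward, and the median was -0.022. In lung, 0 passed either way, against 4.23% of 17575 genes upward and 10.1% downward, with a median of 0.046. The summed level of the 8 hosts was 340.4 CPM in the fed and 339.6 CPM in the fasting spleen library, whereas it went from 71.4 to 127.5 CPM in muscle and from 104.3 to 171.5 CPM in brown adipose. Whether the response differs between these tissues was not tested, since each has 1 pair of libraries.

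**Figure D2:**
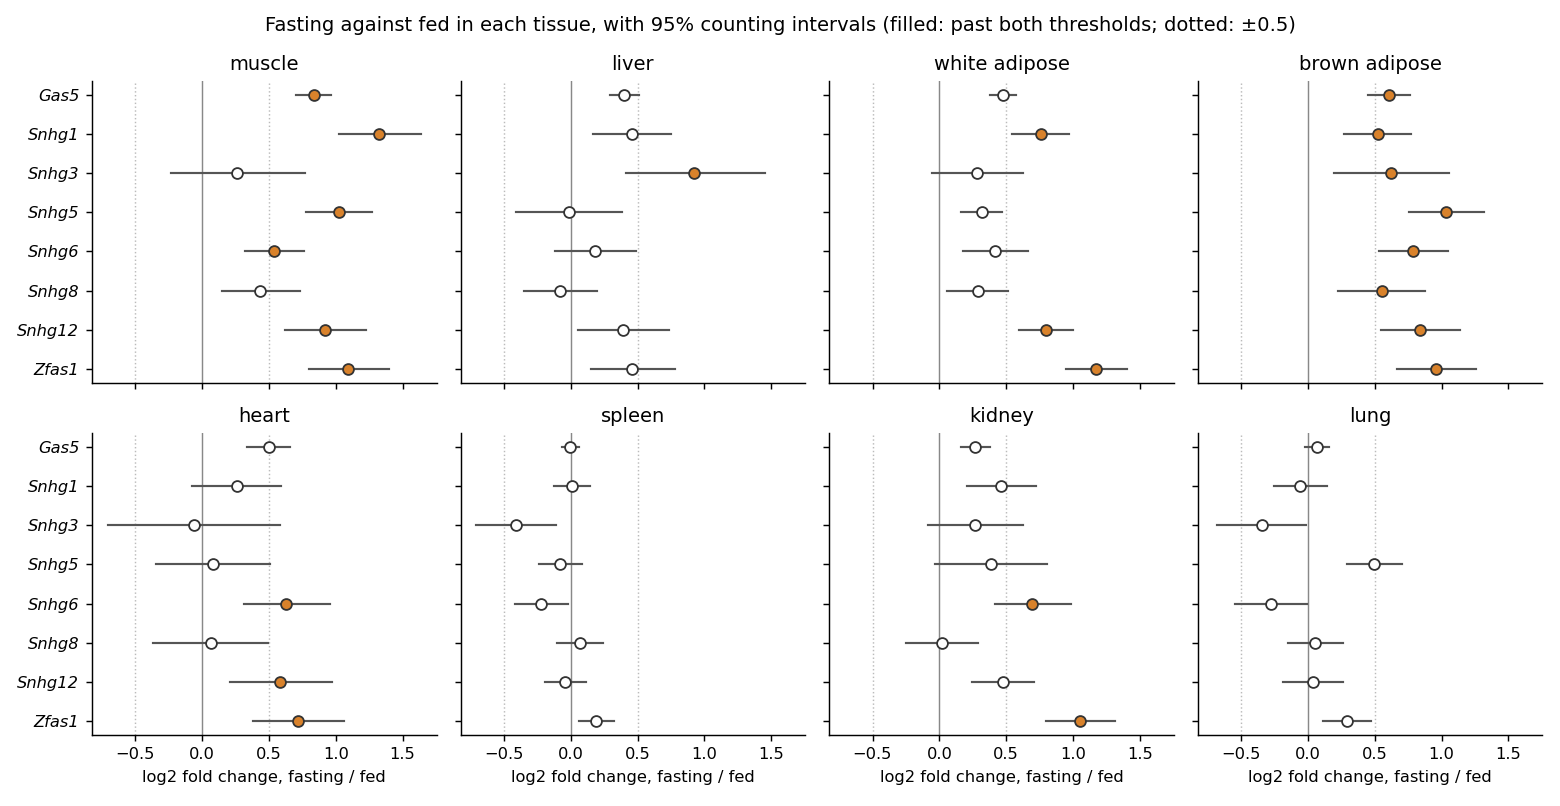
Log2 fold change of each host between the fasting and the fed library, one panel per tissue, with 95% exact counting intervals as bars. Filled points passed both thresholds (23 of 64), dotted lines stand at 0.5 and -0.5, and spleen and lung hold no filled point.

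Across tissues, all 16 libraries were fitted together with edgeR in a model of tissue and treatment, which takes the spread of the treatment difference over the 8 tissues as its error. All tissues were taken from 1 fed and 1 fasting set of mice, so the p-values describe consistency over tissues and not over animals. All 8 hosts were tested, all 8 had a positive estimate with a median of 0.44 (-0.011 for all 17296 genes tested), and 3 rose at an adjusted p-value (Benjamini-Hochberg, quasi-likelihood test) under 0.05. The background share was 2.31% of genes called higher and 2.08% called lower. No host was called lower. At an unadjusted edgeR p under 0.05, 7 hosts had a positive and 0 a negative estimate. The share of all genes at that p is not given here. The median host value is a description and was not tested. Because the hosts and lists were chosen with earlier results of these data known, their shares and medians are not independent evidence.

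Zfas1, the spliced RNA transcribed away from the 5′ end of the helicase gene Znfx1 and host of Snord12, showed the largest estimate of the 8. Its level went from 5.36 CPM in fed to 11.4 CPM in fasting muscle, from 9.32 to 21.0 CPM in white adipose, from 9.15 to 17.8 CPM in brown adipose and from 7.97 to 16.5 CPM in kidney. In the other tissues it went from 7.20 to 11.9 CPM (heart), 6.17 to 8.49 CPM (liver), 14.2 to 17.4 CPM (lung) and 36.1 to 41.2 CPM (spleen). The fasting library was the higher one in 8 of 8 tissues, and 5 of these passed both thresholds. Across tissues it rose 1.71-fold (log2 0.78 ± 0.12 SE, edgeR adjusted p = 0.0131), and it kept that call with any 1 tissue left out. With both adipose tissues left out, its estimate was 0.69 with an adjusted p of 0.0684. Znfx1 shares 82 exon bases with Zfas1 on the opposite strand and had an edgeR estimate of -0.071 ± 0.080. Znfx1 passed in no tissue. Its log2 fold change was -0.46 in white adipose (interval -0.53 to -0.40) and -0.23 in brown adipose (-0.33 to -0.13). In lung it was -0.060 (-0.12 to -0.0041), and in the other tissues the interval included 0. The strand setting of the counting is not given in the sources used here.

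Snhg12, host of Snora16a, Snora44, Snora61 and Snord99, had the next largest estimate. Its fed and fasting libraries read 5.48 and 10.4 CPM in muscle, 13.1 and 22.8 CPM in white adipose, 9.63 and 17.3 CPM in brown adipose, and 5.98 and 8.98 CPM in heart, and all 4 passed. It read 11.0 and 15.3 CPM in kidney, 5.43 and 7.13 CPM in liver, 9.85 and 10.1 CPM in lung, and 28.6 and 27.8 CPM in spleen. Spleen was the 1 tissue in which the fed library was higher, by a log2 fold change of -0.041 whose interval (-0.19 to 0.11) included 0. The rise across tissues was 1.45-fold (log2 0.53 ± 0.12, edgeR adjusted p = 0.0373). The call is close to its threshold: the adjusted p was 0.0510 with a filter on both tissue and treatment, an alternative chosen after seeing the data, and 0.0503 to 0.103 without muscle, liver, white adipose, brown adipose, heart, kidney or lung.

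Gas5, named for its accumulation in growth-arrested cells, holds 10 snoRNA rows, the most of the 8, and gave 44.8% of all counts of the 8 hosts. Its level went from 28.2 CPM in fed to 50.2 CPM in fasting muscle and from 34.9 to 53.1 CPM in brown adipose, both past the thresholds. In white adipose it went from 61.7 to 85.9 CPM and in heart from 34.3 to 48.4 CPM, with log2 fold changes of 0.48 and 0.497 that lie just under the threshold of 0.5. Liver read 51.0 and 67.3 CPM, kidney 51.1 and 61.6 CPM, lung 59.8 and 62.6 CPM, and spleen 163.7 and 163.4 CPM. The spleen pair differed by less than counting error (interval -0.066 to 0.060), at the deepest counts of any host, 3708 and 4547. Across tissues Gas5 rose 1.35-fold (log2 0.43 ± 0.094, edgeR adjusted p = 0.0357), with adjusted p-values of 0.0520 to 0.0986 when muscle, liver, white adipose, brown adipose, heart, kidney or lung was left out. The gene Zbtb37 on the opposite strand, which shares 0 exon bases with Gas5, was called lower in muscle at -0.78 where Gas5 was called higher at 0.83. Zbtb37 passed in 0 of the other 7 tissues, and its edgeR estimate was -0.14 ± 0.084 (adjusted p = 0.325).

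**Figure D3:**
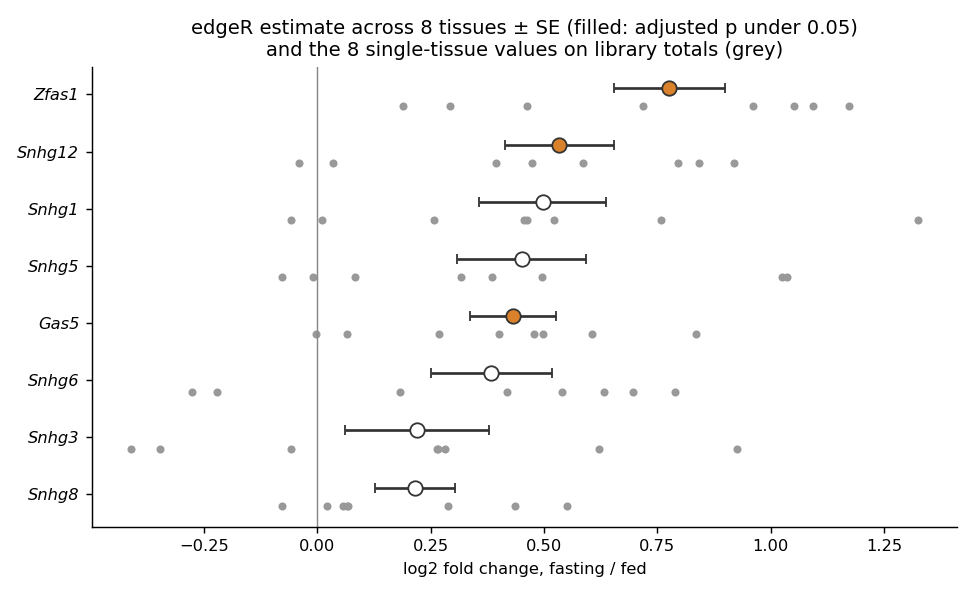
The edgeR log2 fold change of each host across 8 tissues with its SE (large points, filled where the adjusted p was under 0.05) and the values of the 8 single tissues on library totals (grey). Zfas1, Snhg12 and Gas5 are filled, and the 8 grey points of Zfas1 are all above 0.

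Snhg1, which holds 8 snoRNA rows including Snord22, gave the largest single difference among the 64 pairs. In muscle its counts were 117 in fed and 377 in fasting, or 4.86 and 12.2 CPM, a 2.50-fold difference with a log2 interval of 1.02 to 1.64 (Fisher's exact test, p = 2.23e-20). It also passed in white adipose (11.7 and 19.8 CPM) and brown adipose (14.5 and 20.8 CPM), and it read 37.6 and 37.9 CPM in spleen. Its estimate across tissues was 0.50 ± 0.14 with an edgeR adjusted p of 0.0694, which did not pass. DESeq2 gave 0.0248 for it.

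Snhg5, host of Snord50a and Snord50b, passed in muscle and brown adipose only among the 8 tissues, the former from 7.85 to 15.97 CPM and the latter from 9.995 to 20.5 CPM. Its 2 liver libraries were at 4.56 and 4.53 CPM, and the interval of the log2 difference ran from -0.41 to 0.39. In lung it read 10.4 and 14.7 CPM, a log2 fold change of 0.49 that passed the fold threshold with TMM factors (0.57). Across tissues its estimate was 0.45 ± 0.14 (edgeR adjusted p = 0.0949).

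Snhg6, host of Snord87, shares 127 exon bases with Mcmdc2 on the opposite strand, which has 223 counts in all. On library totals Snhg6 passed in 4 tissues: muscle (10.8 and 15.6 CPM), brown adipose (12.6 and 21.8 CPM), heart (8.25 and 12.8 CPM) and kidney (7.13 and 11.6 CPM). In spleen and lung its fasting library was the lower one, at 17.7 and 15.2 CPM and at 7.62 and 6.29 CPM in fed and fasting. The counting intervals of these log2 fold changes, -0.42 to -0.019 and -0.55 to -0.0045, lie below 0. The estimate across tissues was 0.38 ± 0.13 (edgeR adjusted p = 0.117).

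Snhg8, host of Snora24, varied least, with a standard deviation of 0.22 over its 8 log2 fold changes against 0.28 to 0.46 for the other 7. On library totals it passed in brown adipose alone, from 8.67 to 12.7 CPM, and with TMM or DESeq2 factors also in muscle (6.52 and 8.82 CPM). In kidney (9.44 and 9.58 CPM), spleen (21.5 and 22.6 CPM), lung (11.8 and 12.3 CPM), heart (5.63 and 5.90 CPM) and liver (9.73 and 9.21 CPM) the interval of the difference included 0. Its estimate across tissues was 0.21 ± 0.088 (edgeR adjusted p = 0.172).

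Snhg3, host of Snora73a and Snora73b, had the lowest median CPM of the 8 over the 16 libraries, with 40 to 199 counts per library. It passed in liver (2.08 and 3.97 CPM) and brown adipose (4.88 and 7.51 CPM). In spleen it read 8.79 CPM in fed and 6.61 CPM in fasting (interval of the log2 fold change -0.71 to -0.11), and in lung 5.26 and 4.13 CPM (-0.68 to -0.016). Its estimate across tissues was 0.22 ± 0.16 (edgeR adjusted p = 0.428). The noncoding gene Gm17300 shares 705 of the 986 counted exon bases of Snhg3 on the opposite strand and has 16 counts in all libraries together. Rcc1, a regulator of the Ran GTPase, lies on the same strand and shares 135 exon bases with Snhg3. Rcc1 had a negative log2 fold change in all 8 tissues, from -0.49 in kidney to -0.041 in white adipose. It passed in 0 of them, its intervals included 0 in white adipose, brown adipose, heart and spleen, and its edgeR adjusted p was 0.106.

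**Figure D4:**
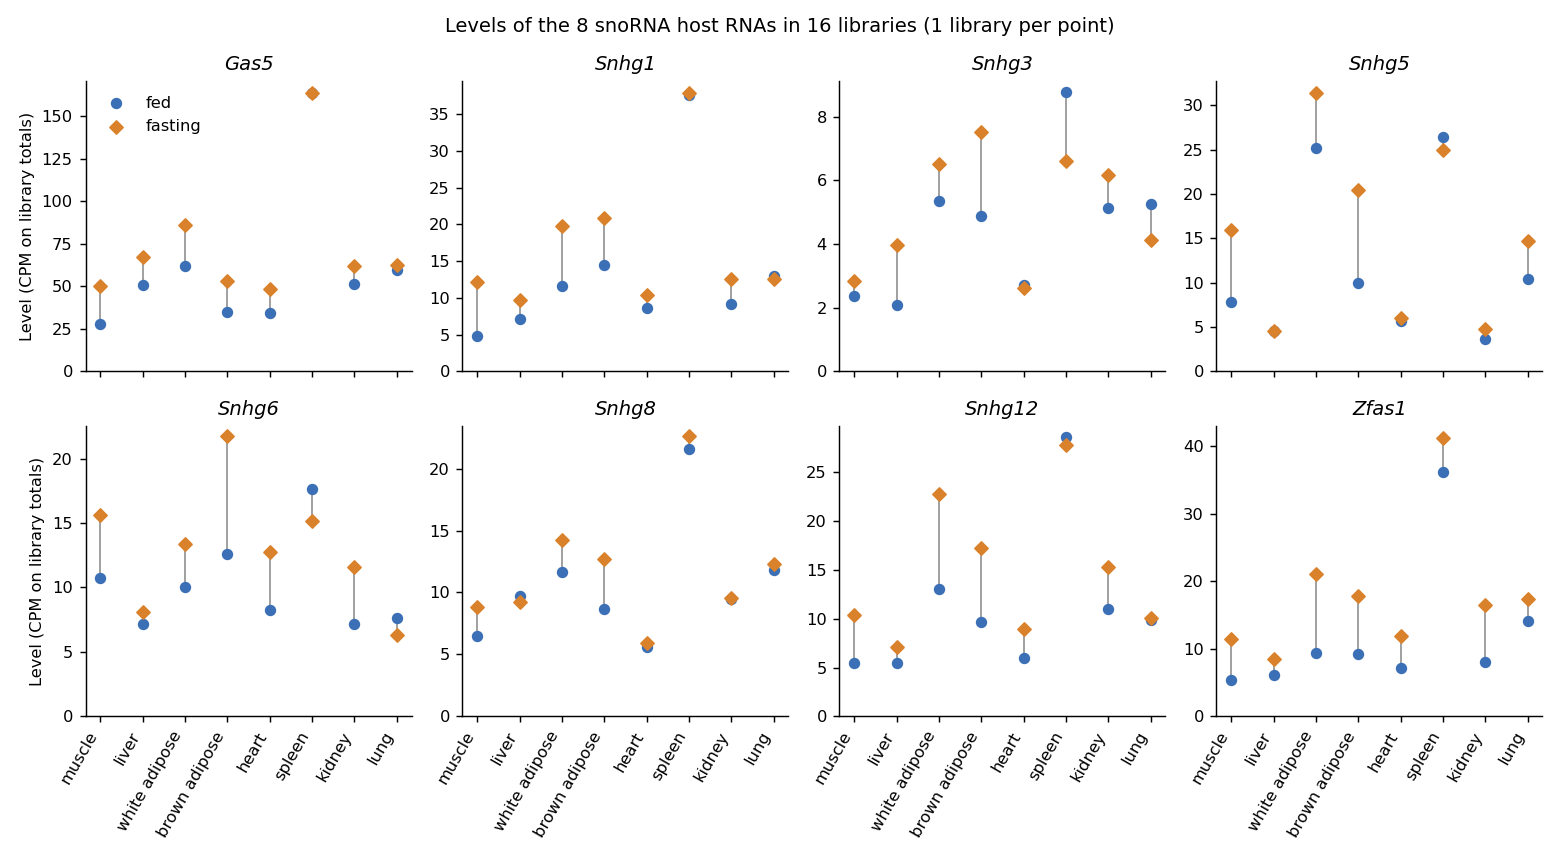
Level of each host in CPM on library totals in the fed (circles) and fasting (diamonds) library of each tissue, with a line joining the pair and a scale of its own for each gene. The diamonds stand above the circles for all 8 hosts in muscle, white adipose, brown adipose and kidney, while Gas5 in spleen sits at 163.7 and 163.4 CPM.

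Snora73b, a box H/ACA snoRNA that acts in the early cleavage of the ribosomal RNA precursor, has a row that shares 0 bases with the counted exons of Snhg3. Its counts per library were 24.7 to 107.9 times those of its host. It passed upward in white adipose (150.7 and 230.9 CPM) and liver (163.6 and 231.6 CPM), the latter as its host did. In brown adipose, where Snhg3 passed, Snora73b read 174.3 and 193.3 CPM, and in spleen, where Snhg3 was lower in the fasting library, it read 718.9 and 713.2 CPM (interval -0.042 to 0.018). Across tissues its estimate was 0.19 ± 0.088 (edgeR adjusted p = 0.222). The sequences of Snora73b and of its copy Snora73a are shown because they differ at 7 of 205 positions (96.6% identity), marked in capitals, so that reads may be split between them. Snora73a, which shares 159 bases with a counted exon, has 78 counts in all, and both values are uncertain for that reason.
Snora73a: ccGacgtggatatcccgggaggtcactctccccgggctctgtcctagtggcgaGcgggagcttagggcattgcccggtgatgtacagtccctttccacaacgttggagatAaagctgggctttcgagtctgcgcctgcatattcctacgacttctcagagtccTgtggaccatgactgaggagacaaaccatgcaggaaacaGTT
Snora73b: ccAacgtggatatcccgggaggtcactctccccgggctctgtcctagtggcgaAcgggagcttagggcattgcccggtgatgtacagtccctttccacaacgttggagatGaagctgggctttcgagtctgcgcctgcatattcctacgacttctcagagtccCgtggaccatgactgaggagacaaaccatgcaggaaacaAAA

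These are GENCODE vM21 sequences on the minus strand at chr4:132352775-132352979 (Snora73a) and chr4:132352322-132352526 (Snora73b), build GRCm38. Snhg3 and Snhg12 are neighbours on chromosome 4, with 36989 bases between their rows on opposite strands, and on library totals they passed together in brown adipose alone, while with TMM or DESeq2 factors they did so in liver as well.

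The level of the hosts between tissues was compared in the same fit. Between the tissues, 7 of the 8 hosts differed at an edgeR adjusted p under 0.05, and Snhg3 had 0.124, while 96.8% of all genes tested differed, so the share of the hosts is near the background. On library totals, spleen had the highest mean of its 2 libraries for Gas5, Snhg1, Snhg3, Snhg8, Snhg12 and Zfas1, white adipose for Snhg5 and brown adipose for Snhg6. Gas5 ran from 28.2 CPM in fed muscle over a median of 56.4 to 163.7 CPM in fed spleen, and Zfas1 from 5.36 CPM in fed muscle over 11.7 to 41.2 CPM in fasting spleen. Spleen also had the highest markers of dividing cells (332.4 CPM or more) and B cells (2404 CPM or more), whose part in these levels was not tested.

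In the order of tissues by level, most neighbours could not be separated by the range of their fed and fasting libraries. Of 7 neighbouring pairs, the ranges were apart in 3 for Snhg5 and Snhg8, in 2 for Snhg12, in 1 for Gas5, Snhg1, Snhg3 and Zfas1, and in 0 for Snhg6. The order also changes with the scaling. With TMM factors, Gas5 averaged 109.2 CPM in spleen, 92.1 in liver and 72.1 in muscle, against 163.5, 59.2 and 39.2 CPM on library totals, and muscle had the highest level of Snhg5 and Snhg6, and brown adipose of Snhg3. Per kilobase of counted exon, the median level over the 16 libraries was 15.0 CPM for Gas5, 11.3 for Snhg8, 9.74 for Snhg6, 6.13 for Zfas1, 5.07 for Snhg3, 4.26 for Snhg12, 4.16 for Snhg1 and 2.81 for Snhg5.

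The hosts varied together to different degrees. Over the 16 libraries, the 28 pairs of hosts had Pearson correlations of log2(CPM + 1) from 0.33 to 0.94 with a median of 0.75, and over the 8 tissues the correlations of their log2 fold changes ran from 0.21 to 0.95 with a median of 0.62. These points share libraries and totals, so the values are descriptions. Among 7274 other genes that reached 5 CPM in all 16 libraries, those most like the mean of the hosts by Pearson correlation over 16 libraries were Ddx18 (0.94), Cstf1 (0.94), Zfp869 (0.94), Tceanc2 (0.93) and Gemin5 (0.93). None of the 5 was among the first 5 by rank correlation.

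Related gene groups were read beside the hosts. Of 14 other noncoding snoRNA hosts, 12 were matched and tested, 1 rose and 1 fell across tissues, and their median estimate was 0.13. The one that rose was Epb41l4aos, an antisense snoRNA host, higher in 8 of 8 tissues (log2 0.79 ± 0.16, edgeR adjusted p = 0.0278). The one that fell was Rian, the imprinted snoRNA host of the Meg3 locus, lower in 7 of 8 tissues (-0.78 ± 0.17, adjusted p = 0.0361). Neither call held with muscle, brown adipose, heart or kidney left out, and that of Rian was also lost without liver or lung.

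A list of 19 other mRNAs known for TOP starts holds mainly translation factors, with some proteins of other functions. At least 1 GENCODE transcript with the pattern is annotated for 9 of the 19 genes. By the RefSeq starts, it was found for 3 of 13 with an entry. Across tissues, 3 of the 19 rose and 0 fell, with a median of 0.16. The largest estimate was that of Eif4b, which stimulates the unwinding of mRNA by the cap-binding complex, at 0.46 ± 0.087 (edgeR adjusted p = 0.0227), higher in 8 of 8 tissues. The others were Npm1, a nucleolar chaperone (0.40 ± 0.090), and Eif3e, a subunit of initiation factor 3 (0.25 ± 0.060), both named after their values were seen. Only Eif4b was called on library totals alone.

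Of the 79 cytosolic ribosomal protein genes, the classical TOP mRNAs, edgeR called 0 in either direction. At an unadjusted edgeR p under 0.05, 7 were higher and 1 was lower, and the share of all genes at that p is not given here. DESeq2 called 6 higher, but over all genes it also called more than edgeR in each direction, as given at the end. The edgeR background share therefore does not apply to these 6. The share of all genes that DESeq2 called is not given here, so the 6 cannot be set against it. The median edgeR estimate of the 79 genes was 0.079. The 2 most abundant, Rpl4 and Rplp0, had 0.12 ± 0.067 and 0.093 ± 0.075. In white adipose the ribosomal protein median was 0.33, beside 0.45 for the hosts and 0.070 for all genes, and in the other 7 tissues it lay between -0.11 and 0.090. In muscle the median of the ribosomal protein genes was -0.11 where that of the hosts was 0.88, and in brown adipose it was 0.021 where that of the hosts was 0.71. Both kinds of RNA were measured as levels, and their translation was not measured.

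**Figure D5:**
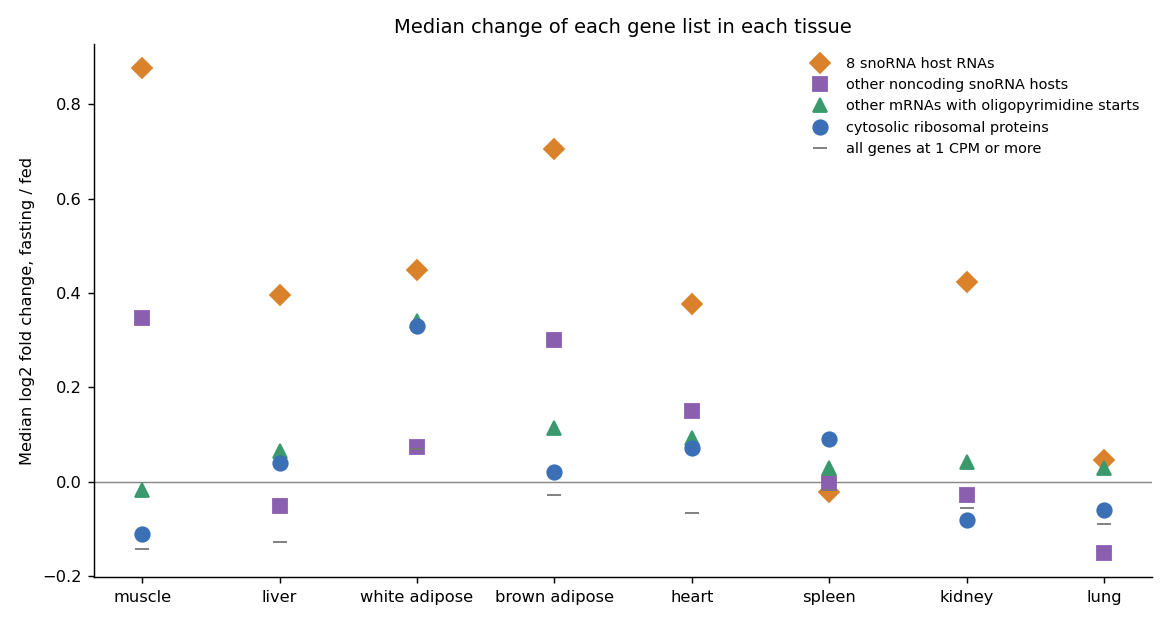
Median log2 fold change between fasting and fed library of 5 gene groups in each tissue, on library totals and over genes with at least 1 CPM in one of the 2 libraries. The diamonds of the hosts are the highest point in 7 of 8 tissues and lie at -0.022 in spleen, and in white adipose the ribosomal protein genes stand at 0.33 beside 0.45 for the hosts.

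Factors known to act on such RNAs were also counted. Their counts at an unadjusted p are given without the share of all genes at that p. Of 10 nonsense-mediated decay factors, edgeR called 0, with 2 higher and 1 lower at an unadjusted p under 0.05, and DESeq2 called 2 (Smg1 and Smg6, higher). Smg1, the kinase that phosphorylates Upf1, had an estimate of 0.25 ± 0.081 (edgeR adjusted p = 0.104). Of 15 proteins of snoRNA particles and their assembly, edgeR called 0 (0 higher and 1 lower unadjusted, 0 by DESeq2), and the most abundant, Nop10 and Nop56, had -0.017 ± 0.055 and -0.0064 ± 0.072. Of 16 regulators of TOP translation, edgeR called 0 (1 higher and 2 lower unadjusted), with Cnbp at 0.059 ± 0.090 and Mtor, the kinase, at 0.016 ± 0.079. DESeq2 called 2 of the 16 lower, Mlst8, a partner of mTOR, and Eif4e, which binds the mRNA cap. Both were named after their values were seen, as were Smg6 and Eif4ebp1. Over all genes DESeq2 also called more than edgeR in each direction, as given at the end. The edgeR background share therefore does not apply to the DESeq2 counts of these lists, and the share of all genes that DESeq2 called is not given here. Eif4ebp1, a repressor of cap-dependent translation, had the largest estimate of the 16, 0.61 ± 0.26 (edgeR adjusted p = 0.195), and passed upward in muscle and heart.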

How the data were processed

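RNA of 8 tissues was sequenced as strand-specific paired-end reads of 100 bases, 1 library per tissue and treatment, each from tissue of 3 mice. By the study's methods, reads passed through fastp (0.23.2) and FastQC (0.11.8). HISAT2 (2.2.1.0) was the aligner, GRCm38 the build, and featureCounts of Subread (2.0) the counter, with GENCODE vM24 as annotation. The deposited values are raw counts of reads or fragments per gene, with gene coordinates and length in bases, and no normalization. The strand setting is not given in the sources used here. Of 55385 gene IDs, 55144 were matched to a symbol.

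From the counts, CPM was computed on library totals, with a pseudocount of 0.01 CPM in fold changes. Within a tissue, Fisher's exact test (two-sided) compared a gene's counts with the rest of the 2 libraries, and exact 95% intervals were taken from the counts. Intervals cover counting error only, and a count of 3, the floor, is 0.0832 to 0.211 CPM. Across tissues, edgeR 4.0.16 (TMM factors, filterByExpr by treatment, quasi-likelihood test, tissue and treatment as terms, 7 residual degrees of freedom, common biological coefficient of variation 0.196) was used under R 4.3.3, with DESeq2 1.42.0 as an alternative. Both tests were run on simulated data with 200 genes changed by a log2 fold change of 1. On data simulated with a spread between libraries, the edgeR fit over 17466 genes recovered 188 with 10 false calls. The exact tests within tissues recovered 156 to 186 with 48 to 102 false calls each. Their data were simulated with counting error alone, so these numbers leave out false calls from variation between pools. The sample groups follow the tissue and treatment labels.

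Named genes were all 8 hosts, the genes inside or overlapping them, in each other list the called gene of largest rise and of largest fall or, where none was called, the 2 of highest mean CPM, and the 5 genes most correlated with the mean of the hosts. One gene that this rule names is not reported here. The members and gene lists were chosen with earlier results of these data known. Other scalings, thresholds, filters, assumed spreads between pools and left-out tissues were tried.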

Additional observations from a re-analysis of the deposited data

Results flagged for a closer look

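For 2 hosts the direction was opposite in different tissues, with counting intervals apart from 0 on both sides. The share of all genes with such intervals is not given here. Snhg3 had log2 fold changes of 0.93 in liver and 0.62 in brown adipose, but -0.41 in spleen and -0.35 in lung. Snhg6 had 0.54 in muscle, 0.42 in white adipose, 0.79 in brown adipose, 0.63 in heart and 0.70 in kidney, but -0.22 in spleen and -0.28 in lung. With TMM factors the spleen and lung values stayed below 0, at -0.39 and -0.27 for Snhg3 and at -0.20 in both tissues for Snhg6. In lung, however, they were then not distinct from 0 (two-sided exact test with TMM factors, p = 0.109 for Snhg3 and 0.146 for Snhg6). The difference between tissues was not tested, since each tissue has 1 library per treatment. The same 2 lung libraries differed in B cell, T cell and dividing-cell markers and the same 2 spleen libraries in erythroid and acinar markers, and their part in these values was not tested.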

How the results depend on the processing

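Within tissues, the count of 23 passing pairs of host and tissue was 32 with TMM or DESeq2 size factors, 23 without the 10 highest genes in the totals, 22 with a pseudocount of 1 CPM, 21 with adjusted p-values and 6 with a log2 threshold of 1, and 0 passed downward under each of these. With TMM or DESeq2 factors, 7 hosts passed in muscle (adding Snhg8), 5 in liver, 4 in heart (adding Gas5), 4 in kidney and 1 in lung. With a log2 threshold of 1, 3 passed in muscle, 1 each in white adipose, brown adipose and kidney, and 0 in liver and heart. These counts, and those below for assumed spreads between pools, are given without the share of all genes that passed. With pools assumed to vary by a coefficient of 0.2 in edgeR's exact test, 1 passed in muscle (Snhg1) and 1 in white adipose (Zfas1), and 0 in liver, brown adipose, heart and kidney. At 0.4, 0 passed in muscle, liver, white adipose, brown adipose, heart or kidney. The number of calls thus depends on the spread assumed between pools, which 1 library per tissue and treatment does not measure. The exact tests reported above allow for counting error only.

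Across tissues, all 8 estimates stayed positive in 15 alternatives, while the calls did not. The 3 calls became 0 without tissue in the model (1 host with an unadjusted p under 0.05) and 0 with both adipose tissues left out (5 unadjusted), and 1 to 3 with 1 tissue left out in turn. The unadjusted counts are given without the share of all genes at that p. DESeq2 called 4, adding Snhg1. The filter added after seeing the data left 2, without Snhg12. Zfas1 was called in 13 of the 15 alternatives, Gas5 in 6 and Snhg12 in 5. Over all genes, 400 higher and 359 lower calls became 844 and 988 with DESeq2, 308 and 639 on library totals, 243 and 198 with the added filter, 96 and 35 without adipose tissues, 0 and 1 without tissue in the model, and 104 to 340 and 52 to 381 with 1 tissue left out. The cause of these changes was not tested. The labels give no replicate numbers, and the tissue term of the reported fit pairs the 2 libraries of a tissue. Depth limits Snhg3 most, with 40 to 199 counts per library.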
